A study of Mus musculus with 14 samples.

Results

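The 9 genes described here encode the main proteins of the tight and adherens junctions between hepatocytes. They are the cadherins *Cdh1* and *Cdh2*, the catenin *Ctnnb1*, the claudins *Cldn1*, *Cldn2* and *Cldn3*, the MARVEL-domain genes *Ocln* and *Marveld2*, and the scaffold *Tjp1*. They were taken by gene symbol from a table of read counts on 55487 genes, and all 9 were among the 12653 genes with enough reads to be tested. The table holds polyadenylated, strand-specific RNA from the right liver lobe of 14 male TALLYHO mice, 8–12 weeks old, an inbred line that develops obesity and diabetes from many natural variants rather than from an engineered allele. Vehicle (water) was given to 7 mice and indole, a bacterial product of tryptophan, to 7 mice at 20 mg/kg. Both were given by oral gavage with 2 doses per day for 7 days and 2 further doses between the metabolic tests that followed, so every mouse had also been gavaged and tested. No untreated mice and no other strain were compared.

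Hepatocytes are polarised cells whose bile canaliculi, narrow channels between neighbouring cells, are sealed from blood by tight junctions. Claudins and the MARVEL proteins occludin and tricellulin form the strands of the seal, and ZO-1, the product of *Tjp1*, ties them to actin. Adherens junctions lie beside them, where cadherins bind cell to cell and β-catenin, which also carries Wnt signals, links the cadherin tail to the cytoskeleton.

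The libraries of vehicle mice held 15390922 to 21060376 counted reads and those of indole mice 15197498 to 18464326. No pair of libraries in a group was as alike as sampling noise would make it, the lowest χ² per degree of freedom being 16.8. The summed level of 10 hepatocyte markers, in CPM (reads scaled to library size, here by the trimmed mean of M values, TMM), ran from 83792 to 104898 CPM in vehicle mice and from 76999 to 111037 CPM in indole mice. Those of bile duct, endothelium, stellate cell and Kupffer cell markers reached at most 470.8 CPM in any mouse, and that of erythroid markers 1094 CPM. Such sums depend on how abundant the chosen genes are, *Alb* alone being at 64641±6340 CPM in vehicle mice. They therefore do not measure the share of each cell type. Indole mouse G8 stood apart in 14 interferon-response genes, whose sum was 4779 CPM against at most 2115 in the other indole mice, and vehicle mouse G11 had the highest sum of its group at 2541 CPM. Values without these mice are given where they bear on a gene below. In bulk RNA, fewer cells of a type and less RNA per cell cannot be told apart.

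Among the junction genes, the levels of *Marveld2* and *Cdh1* were the furthest apart between the groups, at 22.9% and 22.1% lower in indole-treated than in vehicle-treated mice. *Ocln* was 19.5% lower and *Cldn1* 13.2% lower, both with intervals that included no difference. The other 5 genes differed by less than 8% and had intervals on both sides of 0. In edgeR's quasi-likelihood test, 2 of the 9 genes had an unadjusted *p* below 0.05, both lower in indole mice, where 3.81% of all genes tested had such a *p*, 2.28% with a lower and 1.53% with a higher level. After Benjamini–Hochberg adjustment over the 12653 genes, 0 of the 9 passed, each with an adjusted *p* of 0.998, as did 0 of all genes tested, of which 482 had an unadjusted *p* below 0.05. DESeq2 on the 22535 genes with a read also gave 0 genes after adjustment and 719 (3.19%) before it. A lower estimated level in indole mice was found for 8 of the 9 genes, against 48.7% of all genes tested, and the median log2 fold change was −0.12 over the 9 genes and 0.0042 over all genes. The differences below are therefore estimates with their errors, none of which passed the test across all genes.

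**Figure D1:**
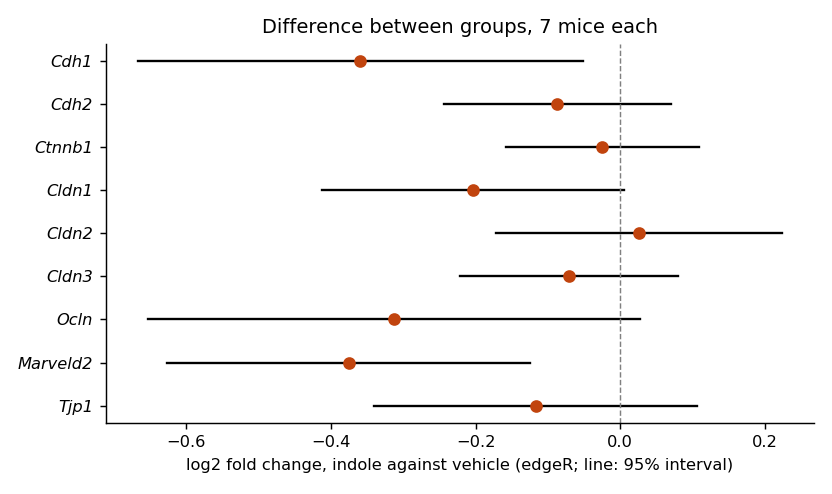
Log2 fold change of each junction gene, indole against vehicle mice (*n*=7 each), from edgeR. Points are estimates and lines 95% intervals. The intervals of *Cdh1* (−0.67 to −0.05) and *Marveld2* (−0.63 to −0.13) lie below 0, and those of the other 7 genes cross it.

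Per kilobase of the gene length given in the table, the 9 transcripts spanned a wide range of levels in vehicle mice. *Cldn3* was the most abundant at 75.0±5.78 CPM per kilobase (mean±SD, *n*=7). *Ctnnb1* at 31.9±1.84 and *Cldn2* at 30.4±5.47 CPM per kilobase came next, and their ranges overlapped. *Cldn1* (13.9±1.73), *Ocln* (12.2±3.28) and *Cdh2* (11.5±0.891 CPM per kilobase) formed a middle tier in which neighbours overlapped. *Cdh1* (5.76±1.27), *Tjp1* (4.48±0.721) and *Marveld2* (4.36±0.920 CPM per kilobase) were lowest and overlapped too. Between the tiers, no vehicle mouse of the higher gene reached down to any value of the next gene in the order.

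**Figure D2:**
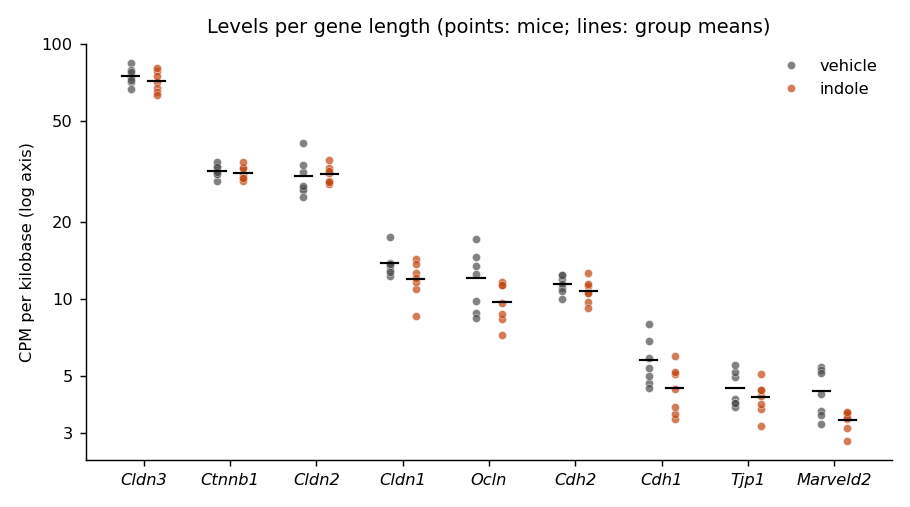
Level of each junction gene in CPM per kilobase of gene length (log axis), 1 point per mouse, with group means as lines. *Cldn3* lies above all other genes in every mouse, and *Cdh1*, *Tjp1* and *Marveld2* are the lowest.

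*Cdh1* (ENSMUSG00000000303, chromosome 8, 106603351–106670246, plus strand, GRCm38) encodes E-cadherin, the epithelial cadherin, which in liver is found on periportal hepatocytes and on bile ducts. Its level in vehicle mice was lowest at 20.5, median 24.6 and highest at 36.5 CPM, and in indole mice 15.6, 20.3 and 27.5 CPM. The groups overlapped, with 4 indole mice below every vehicle mouse and 2 vehicle mice above every indole mouse. The log2 fold change was −0.36 (SE 0.146, 95% interval −0.67 to −0.05, unadjusted *p*=0.0246, adjusted *p*=0.998), and the exact two-sided permutation test over the mice gave *p*=0.0495. This result rested on single mice: without any one of G2, G3, G7, G9 or G10 the unadjusted edgeR *p* lay between 0.0504 and 0.0655, with the weakest estimate, −0.26, without G9, the vehicle mouse with the most *Cdh1*. With 296 to 748 reads per mouse, counting alone gives a coefficient of variation of 4.75% in the vehicle group, where 22.1% was seen between mice.

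*Cdh2* (ENSMUSG00000024304, chromosome 18, 16588877–16809246, minus strand) encodes N-cadherin, which hepatocytes carry along the whole lobule. It was lowest at 81.1, median 93.0 and highest at 100.4 CPM in vehicle mice, and 74.8, 85.5 and 101.99 CPM in indole mice. The highest value belonged to an indole mouse and the groups overlapped. Its log2 fold change was −0.09 (SE 0.0752, 95% interval −0.24 to 0.07, unadjusted *p*=0.261). The log2 ratio of *Cdh1* to *Cdh2* reads within a mouse, which needs no scaling between libraries, was −1.84±0.282 in vehicle and −2.10±0.269 in indole mice (*n*=7 each), a difference of −0.27 with an exact permutation *p* of 0.0921 and 0.212 after adjustment over the 4 ratios compared here. Leaving out each mouse in turn gave differences of −0.33 (without G1, exact *p*=0.0385) to −0.19 (without G2, exact *p*=0.184), with an exact *p* above 0.05 in the other 13 cases, and medians in place of means gave −0.14 (exact *p*=0.289).

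*Ctnnb1* (ENSMUSG00000006932, chromosome 9, 120929216–120960507, plus strand) encodes β-catenin. It varied least of the 9 genes in both groups, with coefficients of variation of 5.77% in vehicle and 6.34% in indole mice. Its lowest, median and highest levels were 150.3, 163.4 and 178.8 CPM in vehicle mice and 150.5, 159.7 and 178.7 CPM in indole mice, so that the 2 ranges were nearly the same. The log2 fold change of −0.02 (SE 0.0640) had a 95% interval of −0.16 to 0.11, which leaves room for a level between 10.4% lower and 7.82% higher in indole mice.

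**Figure D3:**
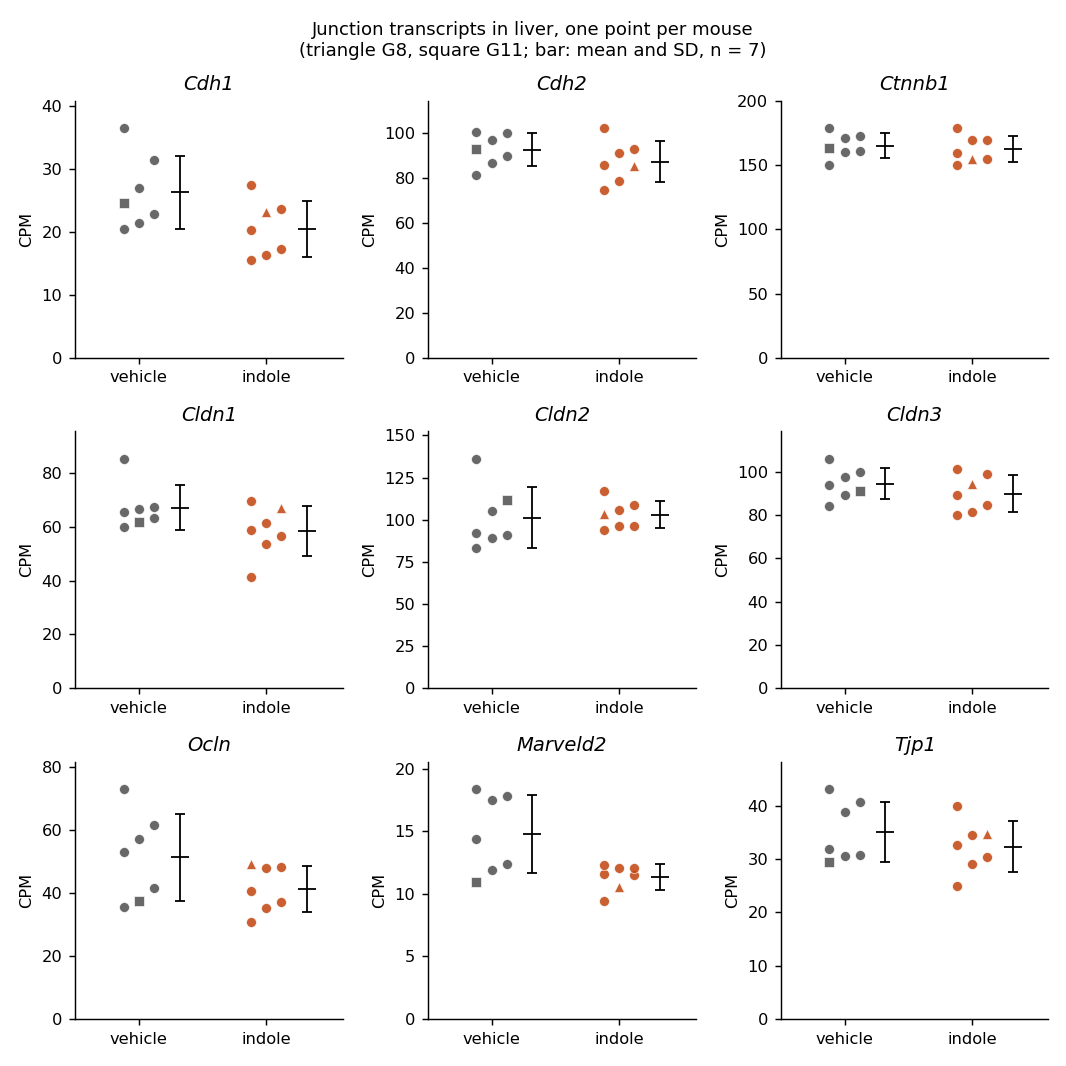
Level of each junction gene in CPM (axis from 0), 1 point per mouse, with mean and SD per group (*n*=7). The triangle is indole mouse G8 and the square vehicle mouse G11. For *Marveld2*, 5 vehicle mice lie above all 7 indole mice, and the indole mice lie close together. For *Cldn2*, the groups have near-equal means, and all 7 indole mice lie above the vehicle median of 92.2 CPM.

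The claudins are the membrane proteins whose type sets what passes a tight junction. *Cldn3* and *Cldn1* code for sealing claudins and *Cldn2* for a claudin that forms cation and water pores. Per kilobase, the 3 genes together made up 82.2±1.003% of reads on the numbered claudin genes in vehicle and 81.6±1.78% in indole mice (79.4±0.863% and 78.6±2.02% with the claudin domain gene *Cldnd1* in the total). Of the numbered claudins, *Cldn3* held 51.7±3.01% and 50.9±2.68%, *Cldn2* 20.9±2.81% and 22.2±2.17%, and *Cldn1* 9.56±1.119% and 8.57±1.09%. The make-up of the claudin transcripts thus differed by less than its spread between mice.

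The 250 bases before the RefSeq start of *Cldn1* (chr16:26371840-26372089, minus strand, GRCm38.p6) and of *Cldn2* (chrX:139800558-139800807, plus strand) are shown, chosen after values were seen, as 2 claudin promoters with different core letters, with no link drawn to the levels. They are printed 5′ to 3′ on the gene's strand, with capitals for GC boxes (GGGCGG, or CCGCCC on the other strand) and for TATAAA (or TTTATA). Positions count back from −1, the base next to the start.
Cldn1: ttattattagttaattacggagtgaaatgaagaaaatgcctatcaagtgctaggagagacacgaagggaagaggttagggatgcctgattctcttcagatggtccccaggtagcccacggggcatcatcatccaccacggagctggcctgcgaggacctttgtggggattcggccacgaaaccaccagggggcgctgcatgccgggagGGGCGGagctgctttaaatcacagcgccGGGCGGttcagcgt
Cldn2: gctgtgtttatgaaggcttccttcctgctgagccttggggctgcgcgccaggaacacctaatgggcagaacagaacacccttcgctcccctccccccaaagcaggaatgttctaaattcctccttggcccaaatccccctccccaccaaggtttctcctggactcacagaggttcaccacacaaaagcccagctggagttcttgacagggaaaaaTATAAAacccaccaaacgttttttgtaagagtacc
The *Cldn1* window held GC boxes at −42 to −37 and at −14 to −9 and no TATAAA, and the *Cldn2* window held TATAAA at −35 to −30 and no GC box. *Cldn3* had a GC box at −236 to −231 and no TATAAA. A GC box on either strand was in 6 of the 7 junction genes that had such a window and in 32.7% of 32851 windows of that length, and TATAAA in 2 of 7 and in 12.4%. CCAAT (or ATTGG) was in 1 of 7, *Ctnnb1*, and in 33.8% of windows. CAGGTG (or CACCTG), the only form of the E-box searched, was in 0 of 7 and in 17.2%. Other forms of the E-box were not counted. These are letters in a window and not tested sites. For *Ctnnb1* and *Tjp1*, both with a GC box, the RefSeq start lay 4184 and 156537 bases from the edge of the gene as counted. No window was at hand for *Cdh1* and *Cdh2*. *Ctnnb1*, *Ocln* and *Marveld2* each had 2 windows, and 1 per gene was used for these counts.

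*Cldn1* (ENSMUSG00000022512, chromosome 16, 26356642–26371841, minus strand) was lowest at 60.0, median 65.4 and highest at 85.1 CPM in vehicle mice and 41.5, 58.8 and 69.6 CPM in indole mice. Its ranges overlapped, although 4 indole mice were below every vehicle mouse. edgeR gave a log2 fold change of −0.20 (SE 0.100, 95% interval −0.41 to 0.01, unadjusted *p*=0.0553, exact permutation *p*=0.0758). Vehicle mouse G9 lay far above the rest of its group and indole mouse G3 was the lowest of all. Without G9 the fold change was −0.14 (unadjusted *p*=0.176) and without G3 it was −0.13 (unadjusted *p*=0.135), while without G6, G7 or G8 the unadjusted *p* was between 0.0235 and 0.0458.

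*Cldn2* (ENSMUSG00000047230, chromosome X, 139800828–139811386, plus strand) was the only one of the 9 genes with a higher estimate in indole mice. It was lowest at 83.4, median 92.2 and highest at 136.1 CPM in vehicle mice, and 93.9, 103.7 and 116.7 CPM in indole mice. All 7 indole mice were above the vehicle median, and 1 vehicle mouse, G13, was above them all. Its log2 fold change was 0.03 (SE 0.0950, 95% interval −0.17 to 0.22, unadjusted *p*=0.788), and 0.11 without G13 (unadjusted *p*=0.176). The log2 ratio of *Cldn1* to *Cldn2* reads was −0.58±0.269 in vehicle and −0.84±0.267 in indole mice (*n*=7 each), a difference of −0.25 (exact permutation *p*=0.106, adjusted over the 4 ratios 0.212). With a mouse left out it lay between −0.33 (without G13, exact *p*=0.0338) and −0.20 (without G3, exact *p*=0.196), with an exact *p* above 0.05 in all cases but the first.

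*Cldn3* (ENSMUSG00000070473, chromosome 5, 134986214–134987472, plus strand) was lowest at 84.0, median 93.6 and highest at 105.8 CPM in vehicle mice and 79.8, 89.2 and 101.3 CPM in indole mice. The ranges overlapped over most of their length, and the log2 fold change was −0.07 (SE 0.0726, 95% interval −0.22 to 0.08, unadjusted *p*=0.339). Its ratio to *Cldn1* reads differed between the groups by 0.14 on the log2 scale (exact permutation *p*=0.244, *n*=7 each).

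*Marveld2* and *Ocln* are neighbours on chromosome 13, on the same strand and with 43238 bases between them. *Ocln* encodes occludin, found along the tight junction, and *Marveld2* encodes tricellulin, found where 3 cells meet. Their windows before the RefSeq start (Marveld2 chr13:100616972-100617221 and Ocln chr13:100552719-100552968, both minus strand, GRCm38.p6, capitals as above) are shown because these neighbours had the largest and the third largest difference between groups.
Marveld2: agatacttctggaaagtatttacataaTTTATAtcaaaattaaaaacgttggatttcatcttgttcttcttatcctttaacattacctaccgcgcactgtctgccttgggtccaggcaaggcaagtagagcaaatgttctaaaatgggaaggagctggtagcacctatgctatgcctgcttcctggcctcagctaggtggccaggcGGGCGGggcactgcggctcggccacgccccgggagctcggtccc
Ocln: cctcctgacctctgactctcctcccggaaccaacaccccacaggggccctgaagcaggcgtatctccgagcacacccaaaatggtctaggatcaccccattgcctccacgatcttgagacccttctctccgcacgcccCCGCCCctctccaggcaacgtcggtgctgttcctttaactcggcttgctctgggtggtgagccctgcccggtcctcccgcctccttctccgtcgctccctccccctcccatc
Both windows held a GC box, at −44 to −39 for *Marveld2* and, on the other strand, at −112 to −107 for *Ocln*, with a GC content of 50.4% and 64.0% against a median of 52.4% over all windows. *Marveld2* also held the reverse TATAAA letters at −223 to −218, far from the start.

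*Marveld2* (ENSMUSG00000021636, chromosome 13, 100595957–100616971, minus strand) was lowest at 10.96, median 14.4 and highest at 18.3 CPM in vehicle mice and 9.43, 11.6 and 12.3 CPM in indole mice. All 7 indole mice were below the vehicle median, and 5 of 7 vehicle mice were above every indole mouse, with an overlap from the 2 lowest vehicle mice only. The log2 fold change was −0.38 (SE 0.120, 95% interval −0.63 to −0.13, unadjusted *p*=0.00525, adjusted *p*=0.998), and the exact permutation test gave *p*=0.0221. By its unadjusted *p* the gene was number 43 among the 12653. The unadjusted *p* stayed below 0.05 without each of the 14 mice in turn (0.00122 to 0.0169). The coefficient of variation was 21.1% in vehicle and 9.05% in indole mice, where counting alone, with 144 to 356 reads per mouse, gives 6.23% and 6.90%. The indole mice differed from each other by little more than counting error.

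*Ocln* (ENSMUSG00000021638, chromosome 13, 100496507–100552718, minus strand) was lowest at 35.7, median 53.1 and highest at 72.9 CPM in vehicle mice and 30.7, 40.8 and 49.4 CPM in indole mice. All 7 indole mice were below the vehicle median and 4 vehicle mice were above every indole mouse, but the vehicle group was spread widely (coefficient of variation 26.9%) and its lowest mice lay among the indole mice. edgeR gave a log2 fold change of −0.31 (SE 0.160, 95% interval −0.65 to 0.03, unadjusted *p*=0.0686, exact permutation *p*=0.133). Without vehicle mouse G1, the highest, it was −0.21 (unadjusted *p*=0.173), and without G8 and G11 together it was −0.42 (unadjusted *p*=0.0185). The log2 ratio of *Marveld2* to *Ocln* reads was −1.78±0.339 in vehicle and −1.85±0.302 in indole mice (*n*=7 each), a difference of −0.07 (exact permutation *p*=0.690).

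*Tjp1* (ENSMUSG00000030516, chromosome 7, 65296165–65527781, minus strand), the gene of the scaffold ZO-1, was lowest at 29.5, median 31.8 and highest at 43.1 CPM in vehicle mice and 24.9, 32.6 and 39.9 CPM in indole mice. The median was higher and the mean lower in indole mice, and the groups overlapped. The log2 fold change was −0.12 (SE 0.107, 95% interval −0.34 to 0.11, unadjusted *p*=0.286). Genes that overlap the 9 on the genome held few reads, at most 81 over all mice (*Ulk4*) against 40673 for *Ctnnb1*, so that shared reads could weigh little in these values.

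To see whether the 9 transcripts varied together, each group's mean was subtracted from log2 CPM and all 36 pairs were correlated over the 14 mice. Pearson's *r* ran from −0.58 to 0.58 with a median of 0.15, was positive for 24 pairs and negative for 12, and 0 pairs passed Benjamini–Hochberg adjustment of the permutation *p*. The highest *r* was that of *Ocln* with *Tjp1* (*r*=0.584, permutation *p*=0.0405, adjusted 0.316; Spearman's rho 0.719, permutation *p*=0.00979, adjusted 0.294). It was 0.524 without the 2 mice farthest from the *Ocln* median, 0.770 within vehicle and 0.313 within indole mice. The lowest was that of *Cldn2* with *Marveld2* (*r*=−0.584, permutation *p*=0.0814, adjusted 0.326; rho −0.679, permutation *p*=0.0307, adjusted 0.294), at −0.575 without the 2 farthest mice, −0.735 within vehicle and 0.148 within indole mice. The neighbours *Ocln* and *Marveld2* gave *r*=0.41.

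**Figure D4:**
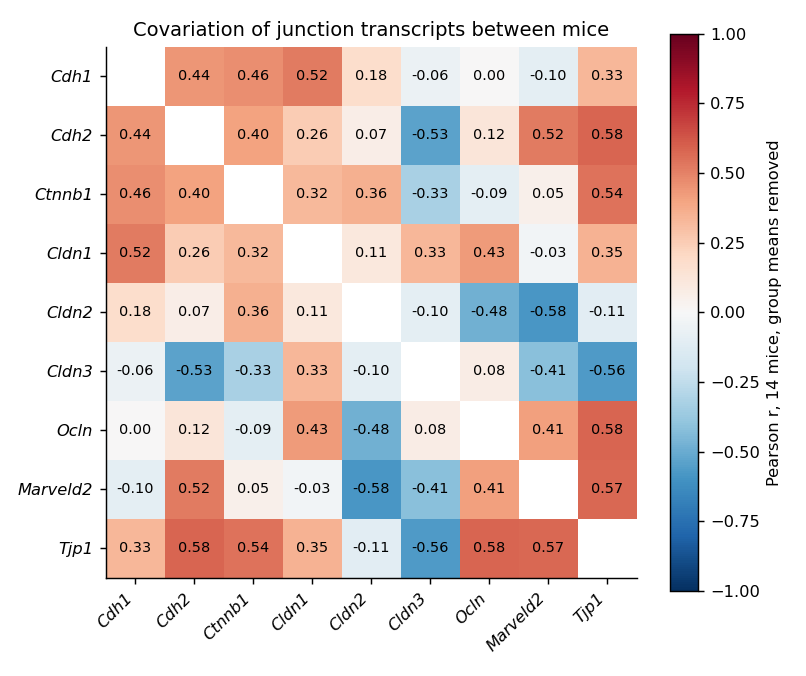
Pearson's *r* of log2 CPM between each pair of junction genes over 14 mice, with group means removed. Red cells are positive and blue cells negative, on a scale from −1 to 1. The highest value is that of *Ocln* with *Tjp1* (0.58) and the lowest that of *Cldn2* with *Marveld2* (−0.58), and *Cldn3* is negative with *Tjp1* (−0.56) and *Cdh2* (−0.53).

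The genes that followed each member most closely were sought among all genes tested. These far outnumber the junction genes. That the closest lay outside the list therefore cannot decide whether junction genes vary together. Over the same 14 mice and scale, the 3 genes with the highest *r* were *Slc39a4* (0.948), *Cps1* (0.878) and *Ogdh* (0.878) for *Cdh1*, and *Erbin* (0.913), *Mtor* (0.896) and *Htt* (0.887) for *Cdh2*. *Cps1* codes for the first enzyme of the urea cycle and *Mtor* for a kinase of nutrient sensing. For *Ctnnb1* they were *Gopc* (0.898), *Nfic* (0.890) and *Ncoa4-ps* (0.885). The claudins each had a different set, *Ceacam1* (0.888), *Peli1* (0.848) and *Pls3* (0.843) for *Cldn1*, *Fto* (0.895), *Smc1a* (0.841) and *Slc35b4* (0.832) for *Cldn2*, and *Rps4x* (0.921), *Rps9* (0.919) and *Commd1* (0.918) for *Cldn3*. *Rps4x* and *Rps9* encode proteins of the small ribosomal subunit. For *Ocln* they were *Gmpr* (0.919, at a mean of 0.622 CPM), *Arid5b* (0.865) and *Sdc4* (0.849), for *Marveld2* *Gorab* (0.920), *Atg2b* (0.891) and *Gm20522* (0.882, at 0.919 CPM), and for *Tjp1* *Slc23a2* (0.878), *Arap2* (0.867) and *Pkn2* (0.867). These are the highest among the 12653 genes tested over 14 mice and carry no test. The nearest other junction gene ranked between 228 (*Tjp1* for *Ocln*) and 3016 (*Cldn1* for *Cldn3*) in these orders. It ranked 514 for *Cdh2*, 517 for *Tjp1*, 606 for *Marveld2* and 617 for *Ctnnb1*. For *Cldn1*, *Cdh1* and *Cldn2* it ranked 625, 847 and 1761. Whether these ranks are higher than those of genes drawn at random was not tested.

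The wider lists hold partners of the same junctions. The 17 tested genes for adherens junction partners include α-catenin, nectins and actin linkers. Of these, 16 had a lower estimate in indole mice, where 48.7% of all genes tested did. But 0 of the 17 had an edgeR unadjusted *p* below 0.05, against 3.81% of all genes tested, and the median log2 fold change was −0.09 (−0.27 to 0.07). The closest to that limit was *Ctnna1*, α-catenin, the partner that binds β-catenin to actin, at 101.8±6.15 CPM in vehicle and 92.6±7.57 CPM in indole mice (*n*=7 each; log2 fold change −0.14, edgeR unadjusted *p*=0.0554), which was named after its value was seen. The most abundant per kilobase was *Actn4*, an actin crosslinker, at 24.8 CPM per kilobase and a log2 fold change of −0.01. Of 24 tested tight junction partners, 13 had a lower and 11 a higher estimate, with a median of −0.02. The most abundant of these was *Lsr*, angulin-1, which brings tricellulin to tricellular contacts, at 97.4 CPM per kilobase and a log2 fold change of −0.06. *Jam2*, an adhesion molecule of endothelial junctions, was the 1 partner with an unadjusted *p* below 0.05 (4.17% of the 24, near the 3.81% of all genes tested). It was at 3.71±0.969 CPM in vehicle and 5.11±1.37 CPM in indole mice (log2 fold change 0.46, SE 0.194, edgeR unadjusted *p*=0.0289, adjusted *p*=0.998). Its exact permutation *p* was 0.0577, limma voom gave an unadjusted *p* of 0.0796, and the edgeR *p* was between 0.0596 and 0.0822 without G3, G5, G10 or G11.

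Of 22 other claudin genes in the table, 5 had enough reads to be tested. An edgeR unadjusted *p* below 0.05 was found for 2 of these 5, against 3.81% of all genes tested. *Cldn5*, the claudin of endothelium, was higher in indole mice (3.38±0.684 against 4.70±1.15 CPM; log2 fold change 0.48, SE 0.176, edgeR unadjusted *p*=0.0133, adjusted *p*=0.998, exact permutation *p*=0.0157). *Cldn15*, a pore-forming claudin best known in gut, was lower, at 1.09±0.175 against 0.514±0.458 CPM with only 0 to 25 reads per mouse (log2 fold change −1.10, SE 0.479, edgeR unadjusted *p*=0.0333, adjusted *p*=0.998, exact permutation *p*=0.0128). Its edgeR *p* was between 0.0512 and 0.0695 without G7, G10, G12, G13 or G14. *Cldn12* was the most abundant of the other claudins at 18.3 CPM per kilobase, with a log2 fold change of −0.08.

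The lists for the remaining contacts between hepatocytes and for regulators held 0 genes with an edgeR unadjusted *p* below 0.05. Over all genes tested, 3.81% had such a *p* and 48.7% had a lower estimate. Of 5 connexins, which form gap junctions, 3 had a lower and 2 a higher estimate, with a median log2 fold change of −0.02. *Gjb1*, connexin 32, was by far the most abundant junction gene examined at 421 CPM per kilobase, with a log2 fold change of 0.06 (SE 0.0858). Of 7 desmosome genes, 6 had a lower estimate and the median was −0.06. *Perp* led them at 24.7 CPM per kilobase with a log2 fold change of −0.0016. Of 18 tested regulators of junctions, 10 had a lower and 8 a higher estimate, with a median of −0.02. They include the repressors of E-cadherin *Snai1*, *Snai2*, *Zeb1* and *Zeb2*, with log2 fold changes of 0.23, 0.14, 0.03 and 0.07 (edgeR unadjusted *p* of 0.539, 0.434, 0.825 and 0.671), which were named after their values were seen. The most abundant per kilobase was *Hnf4a*, the master factor of hepatocyte polarity, at 96.3 CPM per kilobase and a log2 fold change of −0.07 (SE 0.0706, unadjusted *p*=0.322).

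**Figure D5:**
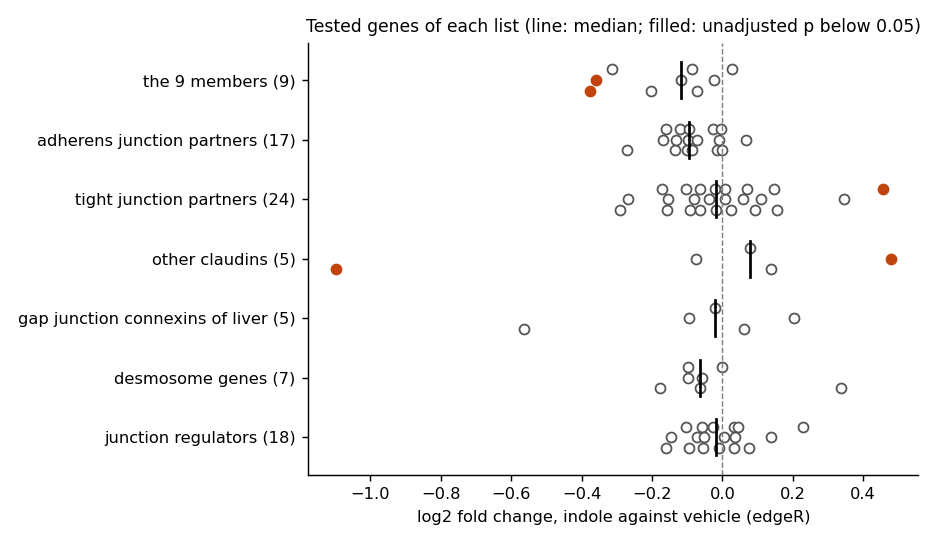
Log2 fold change, indole against vehicle mice, of each tested gene in the 9 junction genes and in 6 wider lists, with the number tested in brackets. Filled points had an unadjusted edgeR *p* below 0.05 and vertical lines are medians. The median lies at −0.12 for the 9 genes, at −0.09 for the adherens junction partners, and from −0.06 to 0.08 for the other 5 lists.

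Other cells of the liver also carry these genes, and their markers differed in some lists. Over all genes tested, 48.7% had a lower estimate and 3.81% an edgeR unadjusted *p* below 0.05. Bile ducts express *Cdh1*, claudins and *Ocln*. All 8 tested bile duct markers had a lower estimate in indole mice, *Krt19* with an unadjusted *p* of 0.00405 (2.07±0.761 against 1.08±0.433 CPM, adjusted *p*=0.998), and their sum over 12 genes ran from 44.1 to 63.8 CPM in vehicle and from 40.6 to 58.3 CPM in indole mice (exact permutation *p*=0.0746, *n*=7 each). *Krt19* was the 1 gene of these 8 under the 0.05 limit. It also stands in the list for surface mesothelium below, so it is not specific to bile ducts here. The part of bile ducts in the lower *Cdh1*, *Ocln*, *Cldn1* and *Marveld2* levels was not tested. The bile duct claudins *Cldn4* and *Cldn7* had at most 6 and 22 reads per mouse. All 10 endothelial markers had a higher estimate, with sums of 99.5 to 167.2 and 120.9 to 217.9 CPM (exact permutation *p*=0.115), beside the higher *Cldn5* and *Jam2*, and their part in these was not tested. The surface mesothelium gave sums of 6.95 to 24.3 CPM in vehicle and 1.89 to 14.9 CPM in indole mice (log2 difference −1.35, exact permutation *p*=0.0192), with all 5 tested markers lower, and its part was not tested either.

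Zonation genes of hepatocytes overlapped between the groups. The sum of 10 periportal genes was 18459 to 22231 CPM in vehicle and 14942 to 23996 CPM in indole mice (exact permutation *p*=0.866), beside the lower estimate of the periportal *Cdh1*, and that of 10 pericentral genes 6754 to 10241 and 7729 to 9333 CPM (*p*=0.825 by the same exact test). Within groups, *Cdh1* followed the hepatocyte sum (*r*=0.756, permutation *p*=0.00318, adjusted 0.165; rho 0.727, permutation *p*=0.00705, adjusted 0.206; *n*=14) and the periportal sum (*r*=0.688, permutation *p*=0.00695, adjusted 0.203; rho 0.771, permutation *p*=0.00291, adjusted 0.170), at *r*=0.680 and 0.631 without the 2 mice farthest from the median sum. It opposed the stellate sum (*r*=−0.729, permutation *p*=0.00087, adjusted 0.102; rho −0.877, permutation *p*=0.00008, adjusted 0.00936), at *r*=−0.883 without the 2 farthest mice. These were 3 of 117 relations between the 9 genes and 13 sums. Of the 117, 9 had an unadjusted permutation *p* of *r* below 0.05 and 0 passed adjustment by *r*. Among the 9 was *Cldn3* with the exocrine pancreas and gut sum (*r*=0.744, permutation *p*=0.00424, adjusted 0.165). The part of the 3 sums in the lower *Cdh1* estimate was not tested. Erythroid transcripts were higher in indole mice (204.1 to 384.1 against 263.2 to 1094 CPM, exact permutation *p*=0.0449), with *Epb42* at 0 in every mouse, and their part in the values above was not tested. The sum for exocrine pancreas and gut was 55.9 to 77.6 against 67.8 to 86.8 CPM (exact *p*=0.0204), with the defining genes *Cela2a*, *Amy2b* and *Cdh17* at 0. Sums for Kupffer cells (95.5 to 256.3 against 116.9 to 470.8 CPM), stellate cells (245.1 to 299.5 against 170.3 to 356.3 CPM), T and NK cells (0.57 to 3.79 against 0.846 to 6.19 CPM) and B and plasma cells (1.18 to 2.05 against 1.21 to 3.27 CPM) overlapped, with exact permutation *p* values of 0.649, 0.684, 0.800 and 0.179. Mouse G8 gave the highest Kupffer cell sum and the highest T and NK cell sum. The next highest indole mice were at 196.2 and 2.05 CPM.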

How the data were processed

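Strand-specific liver RNA-seq reads were aligned by the authors to GRCm38 (HISAT2, Ensembl gene models), who deposited raw counts of uniquely mapped reads per gene, without normalisation. The counting tool and its strand setting are not given in the sources used here. Columns were matched to mice by library name, and groups were taken from the labels, which give no batch. All 14 columns were used.

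The deposited counts were tested with edgeR 4.0.16 in R 4.3.3 (TMM scaling, filterByExpr, robust quasi-likelihood fit). *p* values were adjusted by the Benjamini–Hochberg method over 12653 genes. CPM values are TMM-scaled. SE and 95% intervals come from the same fit. Exact two-sided permutation tests over 3432 relabellings of the mice can give no *p* below 0.000583. For single genes they used log2 CPM with a prior count of 2. For ratios they used the log2 ratio of raw reads with no count added, and marker sums were compared as log2 of summed CPM. Correlations used 100000 permutations within groups. In simulated counts for this comparison (12532 genes, 196 changed by log2 1), edgeR recovered 169 of them and called 11 unchanged genes. That change is larger than any estimate among the 9 genes, the furthest from no difference being −0.38. Recovery of changes of their size was not measured.

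The 9 genes and all lists were chosen with earlier results of these data known. From each wider junction list, the text names the most abundant gene per kilobase and those whose unadjusted *p* was below 0.05, and for each of the 9 genes the 3 with the highest *r*. Marker and zonation lists are given by their sums, with genes at 0. Of those, *Krt19* was named after its value was seen. Promoter windows come from RefSeq (GRCm38.p6) and were found for 7 of the 9. The printed ones were chosen after values were seen. Intervals on counts cover counting error only. Alternatives were DESeq2 1.42.0, limma voom (limma 3.58.1), RLE and upper quartile scaling, no filter, a fit that is not robust, and leaving out mice. In list counts, 1 gene may stand in more than 1 list.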

Additional observations from a re-analysis of the deposited data

Results flagged for a closer look

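Among 26 sets of values compared within groups, 1 held a mouse far from the rest, where chance gives about 1.3. It was *Cldn1* in the vehicle group, in which mouse G9 was highest at 85.1 CPM and its gap to the next mouse was 0.715 of the group's range (critical value 0.57 for 7 mice). G9 also had the highest *Cdh1*, *Ctnnb1* and *Tjp1* of the vehicle mice.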

How the results depend on the processing

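Over 22 alternatives, 0 of 198 values of the 9 genes had an adjusted *p* below 0.05 (smallest 0.717). *Marveld2* stayed lower with an unadjusted *p* below 0.05 in all of them (log2 fold change −0.44 to −0.31), and the estimates of the other 7 lower genes kept their sign. *Cldn2* ran from −0.013 to 0.11 when mice were left out and was negative without G2 (−0.0045), G4 (−0.00093) or G10 (−0.013). The number of the 9 genes with an unadjusted *p* below 0.05 was 1 to 4 when mice were left out, being 1 (*Marveld2*) without G2, G3, G9 or G10, and 4 (with *Cdh1*, *Cldn1* and *Ocln*) without G8 and also without G8 and G11 together. Among all genes that number was 386 to 627 with a mouse left out and 1336 with no filter on low counts, and DESeq2 on the same genes gave 1 gene after adjustment. With a mouse left out, the log2 ratio differences were −0.33 to −0.19 for *Cdh1* to *Cdh2*, −0.33 to −0.20 for *Cldn1* to *Cldn2*, 0.07 to 0.19 for *Cldn3* to *Cldn1* (−0.0073 from medians) and −0.14 to 0.021 for *Marveld2* to *Ocln* (0.021 without G10). Genes with an unadjusted *p* below 0.05 then numbered 0 to 2 among adherens and among tight junction partners, 1 to 2 among other claudins and 0 to 1 among desmosome genes, and without G8 and G11 together 2, 0, 2 and 1. The cause of these shifts was not tested. No paired analysis was possible because the labels give no pairing and the groups share no replicate number. Genes with few reads, such as *Cldn15* with 0 to 25 per mouse, are measured with little precision.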

Other observations

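Most claudin genes gave next to no reads in these livers. Of the 22 other claudin genes in the table, *Cldn9*, *Cldn11*, *Cldn13*, *Cldn16*, *Cldn17*, *Cldn18*, *Cldn19*, *Cldn22*, *Cldn24* and *Cldn34a* had 0 reads in every mouse, which allows up to 3 reads per library. *Cldn6* lay at 0.591±0.231 CPM in vehicle and 0.281±0.218 CPM in indole mice (*n*=7 each), from 0 to 21 reads per mouse, and did not pass the filter for testing. *Cldn14*, at 7.01±0.558 and 7.73±1.55 CPM, and *Cldnd1*, at 13.3±1.67 and 13.97±1.75 CPM, were the remaining claudins tested, with log2 fold changes of 0.14 and 0.08 (edgeR unadjusted *p* of 0.292 and 0.442). These genes were named after their values were seen.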
